A study of Mus musculus with 2 samples.

Results

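The genes described here encode proteins that carry a cell into and through mitosis, together with the spindle checkpoint. They were chosen by name, as 42 gene symbols, and every probe set annotated with exactly 1 symbol, that symbol being on the list, was taken. This gave 91 probe sets for 41 genes, of 45101 probe sets on the array and of 18193 genes with a single-symbol probe set. No probe set with the symbol of Ccnb1 alone was used, so Ccnb1, which encodes cyclin B1, is not analysed here. The samples are MOS-J cells, a mouse osteosarcoma cell line. The control group is MOS-J that received a control lentivirus, with 1 array, and the DKK1 group is MOS-J that received a lentivirus carrying human DKK1, also with 1 array. DKK1 is a secreted antagonist of canonical Wnt signalling that binds the co-receptors LRP5 and LRP6. Although both labels name a lentivirus, the protocols describe a viral route with G418 and a plasmid route with Blasticidin S, and then a dsRed-mito construct and sorting. The sources used here leave unnamed which route the profiled cells took and whether they were 1 clone. The comparison asks how expression differs between the cells with and without human DKK1.

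A dividing cell enters mitosis when cyclin A and cyclin B activate the kinase CDK1, helped by CDC25 phosphatases and by the kinases PLK1 and Aurora A. The spindle checkpoint, built from BUB and MAD proteins and the kinase TTK (MPS1), holds back the anaphase-promoting complex until every kinetochore is attached to microtubules. The complex then uses its activator CDC20 and the conjugating enzyme UBE2C to destroy securin and cyclin B, separase cuts cohesin, and the central spindle and contractile ring divide the cell. Most of these genes are transcribed mainly in G2 and mitosis, so in a bulk RNA sample their level follows in part how many cells are in those phases. Fewer cells in mitosis and less RNA per dividing cell cannot be told apart in these samples.

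With 1 array per group there is no replicate error, no test and no p-value, and each difference compares 2 arrays. The values are MAS5 signals, 1 per probe set on a linear scale, and differences are log2(signal + 16.6), DKK1 minus control. The added constant is the 25th percentile of all signals and pulls the differences of dim probe sets towards 0. Probe sets whose 2 signals averaged at least 71.3 are called measured, and the differences of a gene's measured probe sets were averaged. A gene was called where it differed by at least 1 on the log2 scale, which is 2-fold, with all measured probe sets on that side. Different probe sets of 1 gene had a pooled SD of 0.45 over 4978 genes and of 0.30 over the mitosis genes. That SD is agreement within the arrays and not the spread between cultures.

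The deposited scaling set both arrays to a trimmed mean of 500.0, and other references for the scale gave other zero points. Hybridisation spike-ins were lower on the DKK1 array by a median log2 ratio of −0.37, and poly-A spike-ins higher by 0.64. The 18 hybridisation probe sets ran from −0.59 to −0.24. The 20 poly-A probe sets above the filter ran from 0.10 to 1.21, so scaling to their median is uncertain. Scaling to these controls moved the median of all 11058 measured genes from 0.10 to 0.46 and to −0.52. A direction against 0 for a small difference is therefore not fixed, and the position relative to all genes is given beside it. The 3' to 5' signal ratio was 0.82 and 0.76 for Gapdh and 1.61 and 1.25 for Actb on the control and DKK1 array, and its part in the results was not tested. Of 8 osteoblast markers with a probe set 6 were measured, Col1a1, Col1a2, Sparc, Alpl, Sp7 and Phex, while Ibsp and Dmp1 were below the filter. Of these 6 only Phex, an endopeptidase gene of bone mineralisation, was below 0 and called, with 200 (control) and 1.97 (DKK1) on its measured probe set, while its probe set below the filter had 2.42 and 4.43. The differences of the other 5 were above 0, from 0.05 for Col1a2 to 0.94 for Sparc, and the median of the 6 was 0.32. The osteoblast signals summed to 55634 (control) and 63755 (DKK1). The leukocyte list summed to 511 and 736 with 3 of 7 measured, and Ptprc, the common leukocyte antigen gene, was at most 11.7 on either array. The lysozyme gene Lyz2 was the 1 leukocyte marker called, at 14.5 and 136, and it was below the filter with quantile normalization and with poly-A controls. The endothelial list summed to 217 and 198 with 1 of 5 measured, and the epithelial list to 432 and 641 with 2 of 5. The part of these in the results was not tested.

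As deposited most mitosis genes differed little between the 2 arrays and lay below 0, while 9 of 41 were lower by 1.5-fold or more. All 41 genes were measured. Only Cdc20 and Cdc25c were called, both lower, and 0 of 41 was called higher. Over all measured genes 18.6% were called, 6.91% lower and 11.7% higher, so the share of mitosis genes called lower, 4.88%, lies near the background. The median of the mitosis genes was −0.21, against 0.10 for all genes, with a middle range from −0.45 to −0.08 against −0.36 to 0.56. Of the mitosis genes, 78.0% lay within 0.5 of 0 on the log2 scale as deposited, against 53.1% of all genes. With poly-A controls the median of the mitosis genes was −0.81, against −0.52 for all genes. As deposited 34 of 41 were below 0, against 44.1% of all genes, but with hybridisation controls 15 of 41 were, against 24.9%, and with poly-A controls 41 of 41, against 77.5%. Relative to the median of all genes, 35 of 41 were lower as deposited and with either set of controls. At a 1.5-fold limit 9 of 41 were lower and 0 higher, against 15.6% and 23.6% of all genes. These 9 were Cdc25c, Cdc20, Bub1, Ect2, Ube2c, Cdca8, Nek2, Anln and Mad2l1. Under every scaling tried, 15 of the 41 genes stayed below 0, none stayed above 0 and 26 took both signs.

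**Figure D1:**
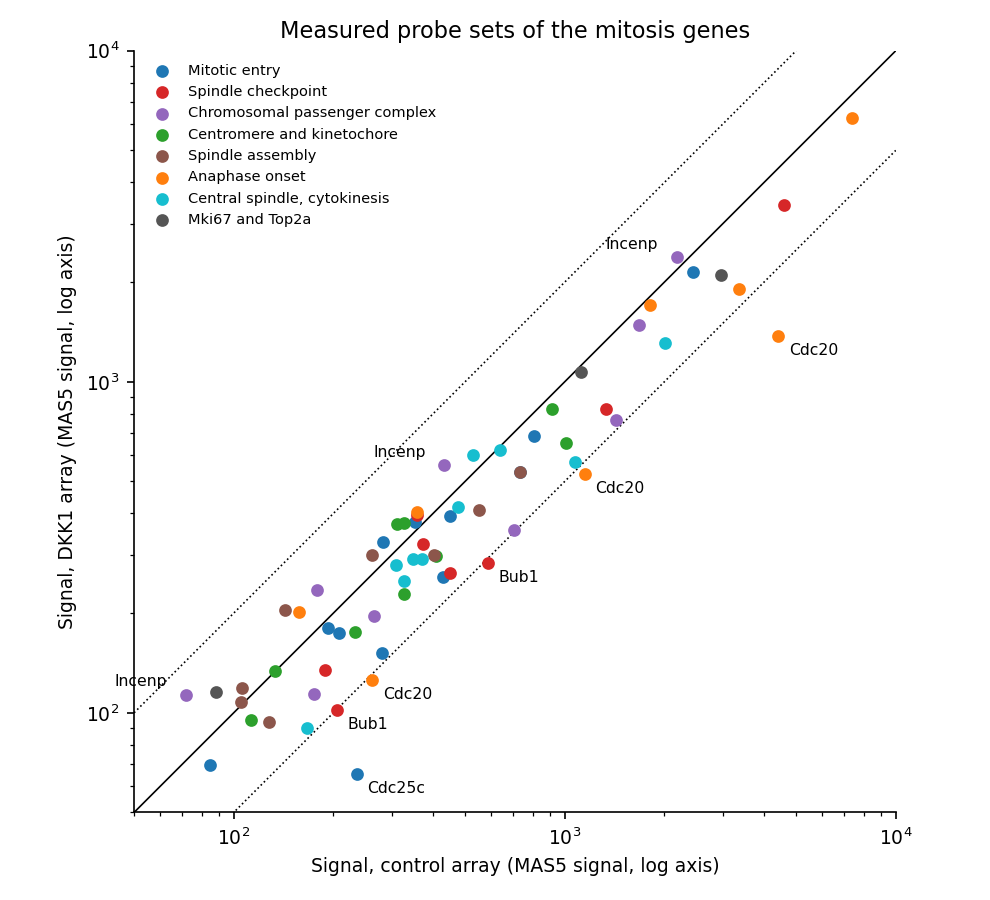
Signal of each of the 67 measured probe sets of the mitosis genes on the control array (x axis) and the DKK1 array (y axis), both in MAS5 signal on log axes, coloured by role. The solid line marks equal signals and the dotted lines 2-fold; the 3 Cdc20, 2 Bub1 and 1 Cdc25c probe sets lie below the lower dotted line, and the 3 Incenp probe sets lie above the line of equality.

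Mitotic entry is set by cyclins, CDK1 and the enzymes that switch it on. Of 9 measured genes of this role 1 was called lower and 0 higher, against 6.91% and 11.7% of all genes. The median of the role was −0.19. Cdc25c encodes a phosphatase that removes the inhibitory phosphates of CDK1. Its measured probe set read 236 in the control and 65.2 in the DKK1 cells (−1.63). The DKK1 signal is below the filter, and raising it to 71.3 gives a 3.31-fold lower signal. A second Cdc25c probe set, below the filter, went the same way with 87.8 and 53.0. Both are probe sets of types that can match more than 1 transcript, so Cdc25c had no value when such types were left out, and none under the stricter filter. Under all 5 scalings its difference lay between −1.92 and −1.30. The filter was set anew with quantile normalization and with either set of controls, so the probe sets averaged can differ between scalings. With no filter on dim probe sets Cdc25c was −1.11, the mean over both probe sets. Cdc25b, the related phosphatase gene, had 283 and 328 (0.20), on the other side of 0.

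Nek2, a centrosome kinase gene, was lower on both measured probe sets, with 280 and 152 on 1 and 428 and 257 on the other, a mean of −0.76. Its probe sets below the filter went the other way, with 35.4 and 44.6 on 1 and 51.1 and 90.6 on the other. With no filter on dim probe sets Nek2 was −0.15. The call of Nek2 appeared only with poly-A controls. With hybridisation controls Nek2 was 0.05, where a further probe set, higher in DKK1 cells, reached the filter. Ccnb2, which encodes cyclin B2, had 733 and 532 (−0.45). The other genes of mitotic entry were nearer to 0. Foxm1, the transcription factor gene that drives many of these genes, had 208 and 174 on its brighter probe set and −0.24 overall. Cdk1, the mitotic kinase gene, had 2436 and 2152 (−0.18), Aurka 451 and 394 (−0.19) and Plk1 193 and 181 (−0.09). The cyclin A2 gene Ccna2 had 805 and 688 on 1 probe set and 353 and 378 on the other, a mean of −0.06. As deposited the kinase and cyclin genes at the centre of mitotic entry differed by less than the SD of 0.45 between probe sets. Ccnb2 lay just inside it, though beyond the SD of 0.30 over the mitosis genes, while Cdc25c and Nek2 lay beyond both.

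The spindle checkpoint genes all lay below 0 as deposited, 5 of 5, against 44.1% of all genes. Their median was −0.47 and 0 were called. Bub1, a kinase gene of the checkpoint, was just short of the 2-fold limit at −0.96, with 588 and 283 on 1 probe set and 205 and 102 on the other. The SD between these probe sets was 0.08. It passed the limit without the added constant (−1.03), with median centring (−1.08), quantile normalization (−1.18), loess (−1.17) and poly-A controls (−1.55), and was −0.61 with hybridisation controls. Mad2l1, which encodes the inhibitor that sequesters CDC20, had 1330 and 830 (−0.67). The checkpoint pseudokinase gene Bub1b had 374 and 323 on 1 probe set and 450 and 265 on the other, with a mean of −0.47. Ttk, the kinase gene that starts checkpoint signalling, had 188 and 135 (−0.44). Bub3, whose product docks BUB1 at kinetochores, went both ways, with 4590 and 3423 on its brighter probe set, 359 and 394 on the other and a mean of −0.15. Bub3 turned to 0.22 with hybridisation controls, while Bub1, Mad2l1, Bub1b and Ttk stayed below 0 under all 5 scalings. A further Ttk probe set, below the filter, went the other way with 12.0 in control and 38.9 in DKK1 cells. With no filter on dim probe sets Ttk was 0.26 and Bub3 0.03, so the side of both depends on the filter.

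Genes of anaphase onset were divided as deposited. Cdc20, the activator of the anaphase-promoting complex and the target of the checkpoint, was lower on all 3 probe sets. Their signals were 1153 and 527, 4416 and 1373, and 263 and 126 in control and DKK1 cells. The differences were −1.11, −1.67 and −0.97, with a mean of −1.25 and an SD of 0.37. With hybridisation controls the mean was −0.89 and the call ended. Ube2c, the conjugating enzyme gene of the same complex, had 3357 and 1905 (−0.81). Its partners at anaphase did not share this. Espl1, the separase gene, had 357 and 404 (0.17). Pttg1, which encodes securin, had 7390 and 6246 on its brightest probe set, 1812 and 1711 on the next and 158 and 202 on the dimmest, a mean of 0.00. Over the 4 genes the median was −0.40, with 2 on each side of 0 as deposited. The side of Pttg1 rests on its dimmest probe set. It was −0.24 with the brightest probe set alone and −0.16 under the stricter filter.

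The chromosomal passenger complex, in which Aurora B is held at centromeres, also had members on both sides. Cdca8, which encodes its subunit borealin, was lower on 3 of 3 probe sets, with 1433 and 764 on the brightest, 704 and 356 on the next and 174 and 114 on the dimmest. Its mean was −0.80 with an SD of 0.22. Incenp, the scaffold gene, was higher on 3 of 3 measured probe sets, with 2178 and 2379, 432 and 560, and 71.5 and 114, a mean of 0.35. With poly-A controls Incenp turned to −0.25. Birc5, the survivin gene, had 1675 and 1480 (−0.18). The kinase gene Aurkb had 266 and 196 on 1 probe set and 178 and 235 on the other, so its mean of −0.02 hides differences of −0.41 and 0.37. Cdca8 and Incenp did not overlap in their probe set differences, although their proteins form 1 complex.

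Of 7 centromere and kinetochore genes 5 were below 0 and 2 above, where 44.1% of all genes were below 0. None was called and the median was −0.24. The histone variant gene Cenpa had 1012 and 653 on its brighter measured probe set, with a mean of −0.42 over both. Cenpf, a large kinetochore protein gene, had 408 and 297 (−0.44). The motor gene Cenpe had 326 and 229 on 1 probe set and 133 and 134 on the other, a mean of −0.24. The NDC80 complex, which grips microtubule ends, spread around 0. Its Ndc80 gene had 232 and 176 (−0.37), Spc25 had 913 and 828 (−0.14), Spc24 had 327 and 375 (0.19) and Nuf2 had 312 and 373 (0.25). These 4 subunit genes each rest on 1 measured probe set.

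Spindle motors and assembly factors gave small differences as deposited. Kif11, the kinesin gene that pushes spindle poles apart, was higher on both measured probe sets, with 262 and 299 on 1 and 143 and 205 on the other, a mean of 0.33. With poly-A controls it turned to −0.27. Tpx2, an activator of Aurora A, had 552 and 409 on its brightest probe set and a mean of −0.27 over 4, of which 3 were lower and 1 higher. Kif2c, a microtubule depolymerase gene, had 733 and 535 on 1 probe set and 105 and 108 on the other, a mean of −0.21.

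All 7 genes of the central spindle and cytokinesis were below 0 as deposited, against 44.1% of all genes. Their median was −0.25 and 0 were called. Ect2, the exchange factor gene that activates RhoA at the division plane, had 1075 and 571 (−0.89) and stayed below 0 under all 5 scalings. Anln, which encodes the contractile ring scaffold anillin, had 2011 and 1311 on 1 probe set and 166 and 89.7 on the other, a mean of −0.70. The chromokinesin gene Kif4 had 327 and 250 (−0.37) and the kinesin gene Kif20a 349 and 291 (−0.25). The 2 subunits of centralspindlin, which recruits ECT2, were nearer to 0. Kif23 had 310 and 279 (−0.14), and Racgap1 had 636 and 623 on its brighter probe set and a mean of −0.10. Prc1, which bundles the central spindle, had 528 and 601 on 1 probe set and 372 and 291 on the other, a mean of −0.08. Kif20a, Kif23, Racgap1 and Prc1 turned above 0 with hybridisation controls. With no filter on dim probe sets Kif23 (0.11) and Racgap1 (0.08) also lay above 0.

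The proliferation marker gene Mki67 had 1119 in control and 1072 in DKK1 cells (−0.06). Top2a, the topoisomerase gene that untangles chromosomes, had 2959 and 2099 on its brighter measured probe set and 88.2 and 115 on the dimmer. Its mean of −0.08 hides differences of −0.49 and 0.33. These widely used markers of dividing cells differed less than Cdc20, Bub1 or Ect2 did.

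**Figure D2:**
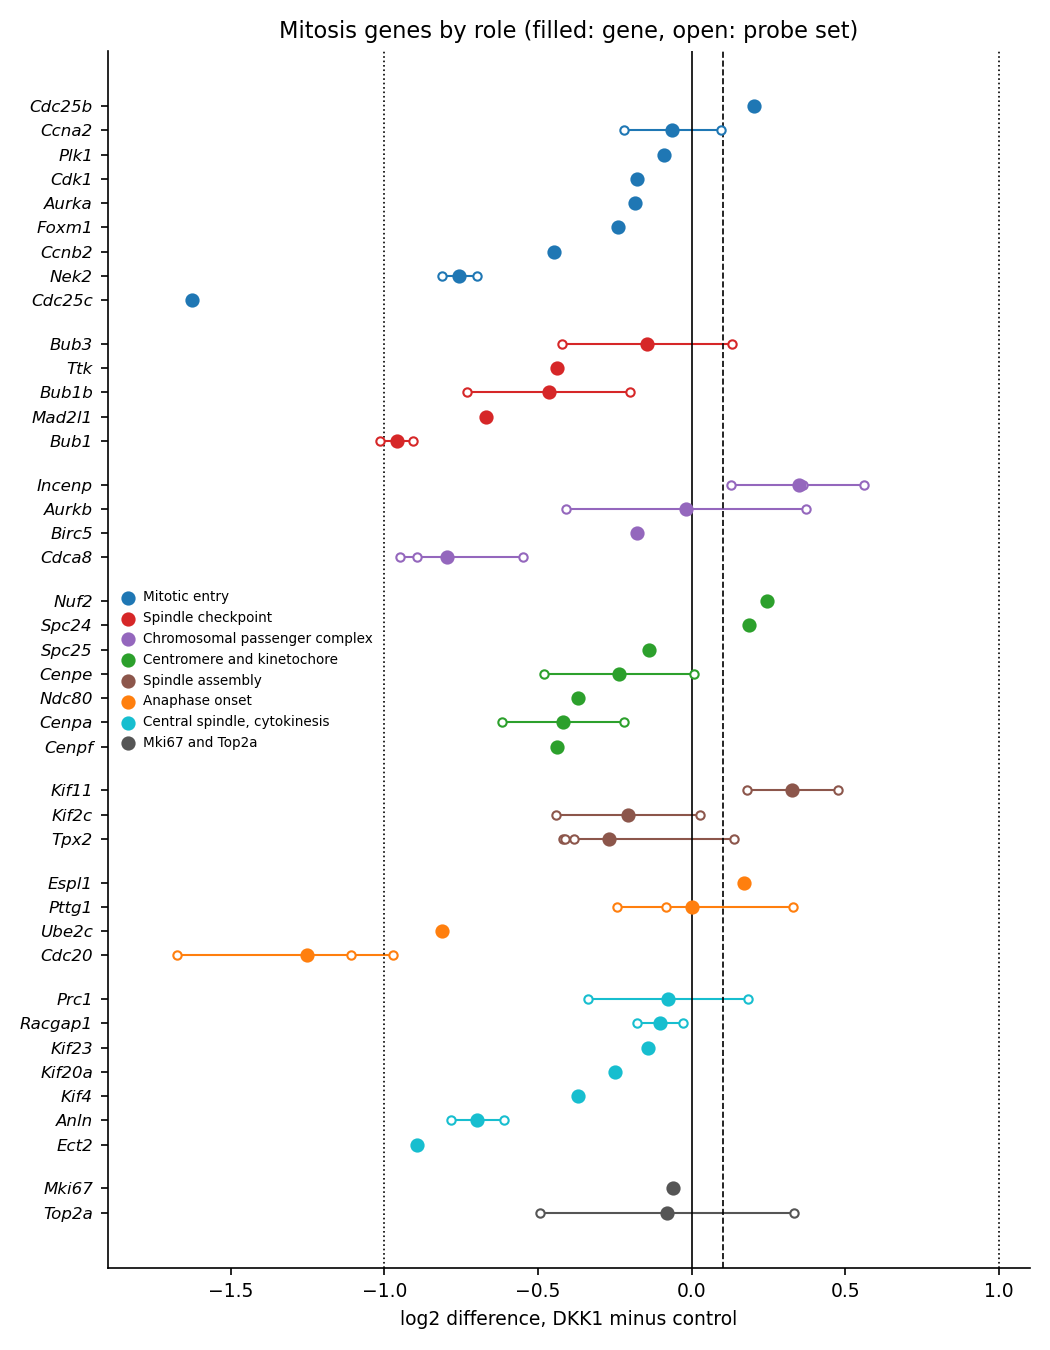
Log2 difference (DKK1 minus control, x axis) of the 41 mitosis genes grouped by role, with filled points for genes and open points for their measured probe sets. Dotted lines mark the 2-fold limit, the solid line 0 and the dashed line the median of all genes at 0.10; only Cdc25c (−1.63) and Cdc20 (−1.25) pass the limit, and the highest gene is Incenp at 0.35.

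Agreement between probe sets limits how firmly single genes can be read. For 20 genes 2 or more probe sets were measured. In 11 of these all lay on 1 side of 0, 9 lower and 2 higher, and 9 genes had both signs. The other 21 genes rest on 1 measured probe set. Of the measured probe sets 49 of 67 were below 0, against 44.9% of all measured single-symbol probe sets. The 24 probe sets below the filter were divided, with 11 below 0 and 13 above. As deposited 10 of 41 genes differed from 0 by more than 0.45, the SD between probe sets of a gene over all genes. The SD over the mitosis genes, 0.30, is a lower bar that more of them pass. Across the 67 measured probe sets the log2 values of the 2 arrays correlated with Pearson's r of 0.95, and across all measured probe sets with 0.90. Probe sets share the arrays and are not independent replicates.

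Mitosis genes outside the list were sorted by complex, and these lists too were chosen with earlier results known. Of 120 such measured genes 5 were called lower (4.17%) and 3 higher (2.5%), with a median of −0.04. Over all measured genes 6.91% were called lower, 11.7% were called higher and 44.1% lay below 0. Further kinetochore and checkpoint genes had a median of −0.24, with 20 of 30 below 0 and 2 called lower. These were Cenpq (−1.19), a centromere subunit gene, and Sgo1 (−1.02), which encodes the cohesin protector shugoshin. Mitotic entry kinases, phosphatases and subunits of the DREAM repressor complex had a median of −0.16, with 14 of 20 below 0. The 1 called was Ppp2r2a (−1.33), a regulatory subunit gene of phosphatase PP2A. Further spindle and centrosome genes had a median of −0.12, with 17 of 28 below 0. The kinesin gene Kifc1 (−1.56, with 309 in control and 94.0 in DKK1 cells) and the Aurora A cofactor gene Bora (−1.08) were lower. Numa1 (1.32), which anchors spindle poles, was higher. The 2 measured Bora probe sets differed widely, with an SD of 0.85. With hybridisation controls Cenpq, Sgo1, Ppp2r2a and Bora fell short of the limit, and with poly-A controls Numa1 did, while Kifc1 passed under all 5 scalings.

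Another 3 lists of mitosis genes had medians above that of all genes. Subunits of the anaphase-promoting complex, which CDC20 and UBE2C serve, had a median of 0.25, with 6 of 15 below 0. The genes called higher were 2 (13.3%, against 11.7% of all genes). These were Anapc11 (1.23) and Anapc13 (1.07), whose calls ended with poly-A controls (0.61 and 0.43), and that of Anapc13 also with median centring. The SD between the 2 measured Anapc11 probe sets was 0.54. Cohesin and condensin genes had a median of 0.16, with 5 of 18 below 0 and 0 called. Further cytokinesis genes such as those of RhoA kinases, myosins and membrane scission had a median of 0.25, with 2 of 9 below 0 and 0 called. Relative to the median of all genes these 3 lists lay at 0.15, 0.06 and 0.15, and the mitosis genes described above at −0.31. No list was tested against another.

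The DNA replication genes, which act in S phase, also had a median below that of all genes. Relative to all genes it was −0.42 as deposited against −0.31 for the mitosis genes, and this order turned under the stricter filter, with −0.35 against −0.42. Of 47 measured, 7 were called lower (14.9%, against 6.91% of all genes) and 0 higher. Below 0 lay 37 (78.7%, against 44.1% of all genes), and the median was −0.32. Their signals summed to 85033 on the control and 59129 on the DKK1 array, against 57962 and 43828 for the mitosis genes. Of the G1 cyclin and CDK inhibitor genes 17 were measured. Here 2 were called lower (11.8%) and 3 higher (17.6%), against 6.91% and 11.7% of all genes. The G1 list had a median of −0.06. Its genes ran from the cyclin gene Ccnd2 (−1.82) to the inhibitor gene Cdkn2c (2.05), a wider range than the mitosis genes, which ran from −1.63 to 0.35. The inhibitor gene Cdkn1a (−1.57) was lower as well, and these 3 calls held under all 5 scalings.

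**Figure D3:**
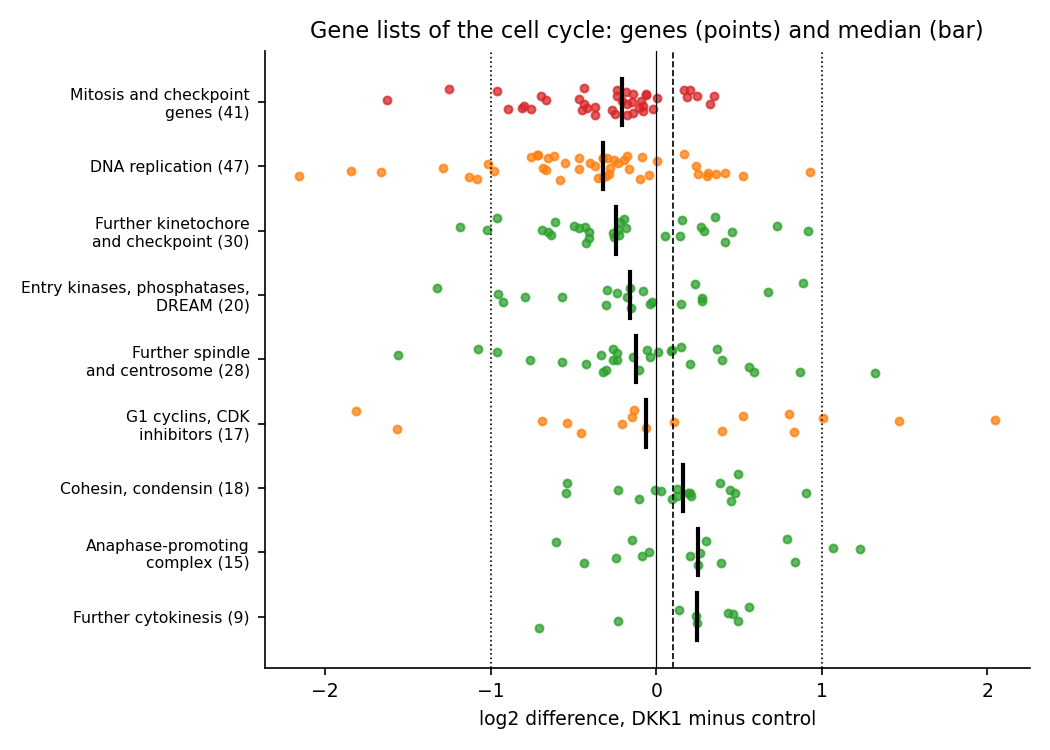
Log2 difference (DKK1 minus control, x axis) of each measured gene in the mitosis list (41 genes, red), 2 neighbouring cell cycle lists (orange) and 6 lists of further mitosis genes (green), with a black bar at each median. The dashed line is the median of all genes and the dotted lines the 2-fold limit; the medians run from −0.32 for DNA replication to 0.25 for the anaphase-promoting complex.

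**Figure D4:**
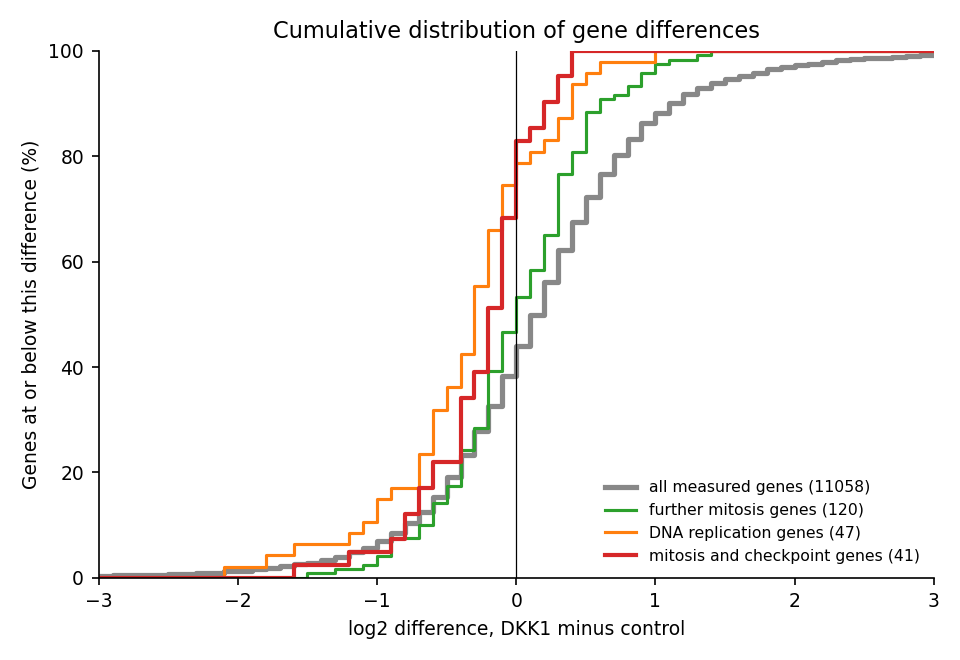
Cumulative share of genes (y axis, percent) at or below each log2 difference (x axis, DKK1 minus control) for all 11058 measured genes and 3 gene lists. The curve of the 41 mitosis genes is steeper than that of all genes, with 82.9% of it below 0 against 44.1%, and reaches 100% before a difference of 0.5.

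Promoter sequences are shown because many G2 and mitosis genes share a promoter layout. In that layout CCAAT boxes, bound by NF-Y, precede a cell cycle genes homology region (CHR), which the DREAM complex binds in resting cells and the MYBL2 and FOXM1 complexes bind in G2. RefSeq promoters of build GRCm38.p6, 300 bases from 250 before to 50 after the annotated start, were matched by symbol for 34 of 42 genes. The other 8 were Ccna2, Cdc25c, Foxm1, Aurkb, Incenp, Spc24, Kif20a and Tpx2. The CHR was searched as TTTGAA or TTCGAA and the CCAAT box as CCAAT, on both strands. A CHR motif was found in 27 of 34 genes (79.4%), against 19.2% of all 32851 promoters and 16.2% of 8982 measured genes with an entry. A gene counted where any of its entries held the motif, while the 32851 promoters were counted entry by entry. Only the share of measured genes is thus counted in the same way as that of the mitosis genes. A CCAAT motif was found in 27 of 34 (79.4%), against 37.4% and 43.2%. Both motifs were present in 24 of 34 (70.6%), against 7.52% and 6.59%. A CCAAT motif starting 20 to 50 bases before a CHR motif was present in 16 of 34, against 1.25% of all promoters and 1.44% of measured genes, a spacing chosen after the positions had been seen. The motifs overlapped in 1 gene. A match is only a description of the letters and not a binding site.

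The 120 bases before the start are printed 5′ to 3′ on the strand of the gene for the 5 lowest and the 3 highest genes on the arrays that have an entry. Capitals mark CCAAT and CHR motifs on either strand, so that ATTGG is a CCAAT box read backwards and TTCAAA a reversed CHR.
Cdc20: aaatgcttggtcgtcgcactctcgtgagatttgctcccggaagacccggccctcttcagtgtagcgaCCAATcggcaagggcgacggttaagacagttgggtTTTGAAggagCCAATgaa
Bub1: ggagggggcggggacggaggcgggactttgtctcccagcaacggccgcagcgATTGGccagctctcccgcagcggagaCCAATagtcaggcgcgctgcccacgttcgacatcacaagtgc
Ect2: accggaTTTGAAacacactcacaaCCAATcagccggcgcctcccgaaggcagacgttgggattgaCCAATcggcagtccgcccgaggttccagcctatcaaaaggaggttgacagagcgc
Ube2c: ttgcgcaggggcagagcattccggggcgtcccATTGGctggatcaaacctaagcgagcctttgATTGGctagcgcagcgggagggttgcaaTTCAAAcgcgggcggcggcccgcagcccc
Cdca8: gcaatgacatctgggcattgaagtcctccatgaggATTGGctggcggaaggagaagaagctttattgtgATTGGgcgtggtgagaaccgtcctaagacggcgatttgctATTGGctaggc
Cdc25b: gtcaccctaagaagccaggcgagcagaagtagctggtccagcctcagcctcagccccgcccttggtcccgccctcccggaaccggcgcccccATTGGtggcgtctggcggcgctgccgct
Nuf2: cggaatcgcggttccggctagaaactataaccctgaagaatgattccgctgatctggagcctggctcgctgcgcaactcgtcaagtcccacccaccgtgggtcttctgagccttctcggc
Kif11: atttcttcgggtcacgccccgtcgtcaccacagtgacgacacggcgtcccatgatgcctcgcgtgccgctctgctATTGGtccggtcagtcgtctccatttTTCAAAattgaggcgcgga
They lie at Cdc20 chr4:118437344-118437463 (minus strand), Bub1 chr2:127831860-127831979 (minus strand), Ect2 chr3:27153879-27153998 (minus strand), Ube2c chr2:164769809-164769928 (plus strand), Cdca8 chr4:124936918-124937037 (minus strand), Cdc25b chr2:131186828-131186947 (plus strand), Nuf2 chr1:169531465-169531584 (minus strand) and Kif11 chr19:37376262-37376381 (plus strand). In Cdc20 a CHR begins 18 bases before the start, between CCAAT boxes that begin 53 and 8 bases before it. In Ube2c the reversed CHR begins 29 bases before the start, and in Kif11 19 bases before it, each behind a reversed CCAAT box. Bub1, Cdca8 and Cdc25b have their CHR just after the start, beginning at base 15, 14 and 8, outside the printed stretch. Ect2, shown for the more upstream of its 2 annotated starts, has a CHR that begins 114 bases before it and another at base 40 after it. Nuf2 has neither motif in the window. Kif11, on the higher side as deposited, and Cdc20, the lowest gene with an entry, both hold CCAAT and CHR motifs within the printed stretch. The number, order and strand of these motifs differ between them. A link of motifs to the direction of a gene was not tested.

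**Figure D5:**
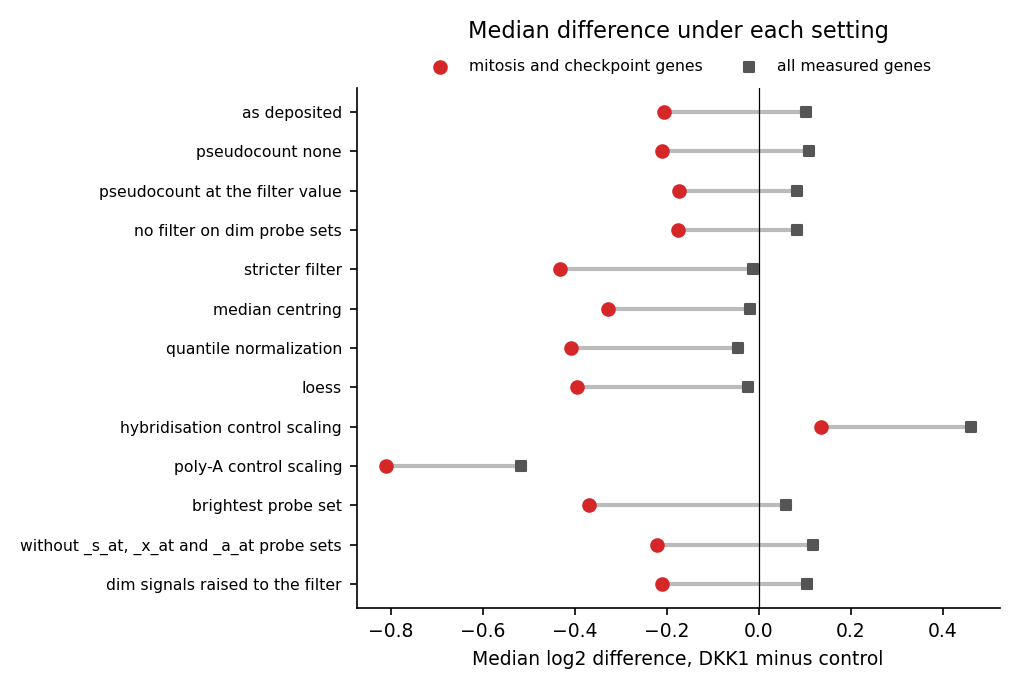
Median log2 difference (x axis, DKK1 minus control) of the mitosis genes (red circles) and of all measured genes (grey squares) under each way of processing the arrays. The mitosis genes lie to the left of all genes in each row, while the zero point moves from 0.46 for all genes with hybridisation controls to −0.52 with poly-A controls.

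Against the median of all genes the median of the mitosis genes stayed on 1 side under all alternatives run. The distance was −0.31 as deposited and between −0.26 and −0.43 under the others. A change of scale by 1 factor moves both medians nearly alike, and with 1 array per group it is unknown whether the distance would recur in other cultures. The absolute median was −0.21 as deposited, 0.14 with hybridisation controls and −0.81 with poly-A controls, where 14 of 41 genes (against 24.1% of all) were called lower. Under the other alternatives the absolute median lay between −0.43 (stricter filter) and −0.17 (pseudocount at the filter value).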

How the data were processed

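Total RNA of 2 samples, 1 per group, was labelled with biotin from 500 ng and hybridised to 1 Affymetrix mouse expression array each, per the labels' protocols. The deposited table holds linear intensity, 1 value per probe set. The submitters' processing notes name MAS5. Neither its version nor its settings were given in the sources used here. Symbols come from the platform annotation, and all 91 probe sets of the mitosis genes matched a RefSeq table of GRCm38.p6 by gene ID with the same symbol. The pseudocount (16.6) is the 25th percentile of the signals and the filter (71.3) the median of the mean signals. Of 45101 probe sets 64 are controls, and 19360 measured ones carry 1 symbol. Computation used Python 3.11.15, pandas 2.3.3, numpy 2.4.6 and statsmodels 0.14.6. The calling rule was also run on simulated arrays with independent noise of a chosen size for each probe set. That run checks the computation and cannot show how often the rule errs on these 2 arrays. The number of arrays limits the precision, and with 1 array each a batch and the group cannot be told apart.

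The genes and all lists were chosen with earlier results of these data known. Named were all mitosis genes and, from each other list, up to 3 called genes with the largest difference, with DNA replication genes given only as counts. Alternatives were other pseudocounts, filters, scalings and choices of probe set, and a 1.5-fold limit. Raising dim signals to the filter was added after the data had been seen. A probe set that lists Foxm1 with other symbols was left out by the rule.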

Additional observations from a re-analysis of the deposited data

How the results depend on the processing

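As deposited 2 mitosis genes were called lower, against 6.91% of all genes. This count was 4 with median centring (8.93% of all genes), 1 with hybridisation control scaling (3.45%) and 14 with poly-A control scaling (24.1%). It was 1 of the 31 genes left without probe sets ending in _s_at, _x_at or _a_at (6.79%) and 9 at 1.5-fold (15.6%). The count thus moved with the share of all genes called across the 3 scalings. The median of −0.21 turned to 0.14 with hybridisation controls and moved to −0.81 with poly-A controls. The count below 0 was 34 as deposited, 15 with hybridisation controls and 20 of 22 genes under the stricter filter of 427, where 20 also lay below the median of all genes. The smaller number there follows from the fewer genes left. With no filter on dim probe sets 29 of 41 lay below 0, against 43.7% of all genes, and 32 below the median of all genes. In that setting Foxm1, Ttk, Bub3, Kif23 and Racgap1 turned above 0. No gene was called higher under any alternative run. The medians of the other lists relative to all genes kept their side under all filters and scalings run. Of 463 values of single genes under an alternative, 442 kept their call or lack of one. No paired analysis was possible because each group has 1 array, and for the same reason no array could be left out. Cdc25c, Incenp and Foxm1 each rest in part on a signal near the filter. Others, such as Top2a, Anln, Cenpa, Tpx2 and Kif2c, average in a probe set not far above it. Weak signal limits the reading of all these genes. Other scalings by 1 factor moved all lists together.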

Other observations

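Among the 33 measured mitosis genes with a promoter entry, the 27 with a CHR motif had a median log2 difference of −0.21 and ran from −1.25 to 0.33, and the 6 without ran from −0.76 to 0.25 with a median of −0.21. The 26 with a CCAAT motif had a median of −0.21 and the 7 without also −0.21. The 24 genes with both motifs had a median of −0.18 and the 9 others −0.24. The ranges overlapped in each case, and no test was made.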
